A study of Homo sapiens with 18 samples.

Results

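The libraries described here are the 4 RNA-Seq samples of triptolide-treated MCF10A-ErSrc cells, chosen by their labels from 8 RNA-Seq samples and 18 samples in all. They are 2 replicates of NT + TPL and 2 of TAM + TPL, and the question is which RNA differences between untransformed and Src-transformed cells were also found under triptolide (TPL). MCF10A-ErSrc is a human non-tumour breast epithelial line that carries v-Src fused to part of the oestrogen receptor, so that tamoxifen turns the kinase on, and every group carries this transgene. Cells called NT were kept without tamoxifen, and cells called TAM had been given 2 µM tamoxifen. Both then received a nanomolar dose of TPL for 4 h, and their counterparts without TPL, 2 NT and 2 TAM libraries, received DMSO for 4 h. The study's methods call the replicates independent biological replicates of 1 line.

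Src is a tyrosine kinase that signals from growth factor receptors and integrins. In this line its activation is known to set off a loop of NF-kB, IL6 and STAT3 that keeps cells transformed. TPL binds XPB, a helicase subunit of the general transcription factor TFIIH, and blocks initiation by RNAPII. RNA taken after a few hours of TPL therefore includes molecules made before the drug was added, and stable RNAs outlast unstable ones.

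The RNA-Seq files give expected counts, the reads estimated to come from each gene, and FPKM, in which those reads are scaled to transcript length and library size. The 4 TPL libraries held between 7461309 and 8141162 expected counts. Pearson's r of log2(FPKM + 1) across genes was 0.960 between the NT + TPL replicates, 0.972 between the TAM + TPL replicates and between 0.939 and 0.944 across the states. FPKM are shares of a library, so a fall in the total RNA of a culture cannot be seen, and fewer cells of a kind and less RNA per cell cannot be told apart. The basal epithelial keratins KRT5 and KRT17 were at 434 FPKM or more in each of the 4 libraries. The basal marker list summed to 11600 and 9450 FPKM in NT + TPL and to 2160 and 1960 FPKM in TAM + TPL. TP63, the basal lineage factor, was below 1 FPKM in each of the 4. Of 13 fibroblast, immune and endothelial markers with a row, 6 were below 1 FPKM in all 8 libraries. The summed level of these markers was 104 and 124 FPKM in NT + TPL and 424 and 489 FPKM in TAM + TPL, of which CD68, a lysosomal membrane protein used as a macrophage marker, made up 76.98 to 88.96 and 407 to 473 FPKM. The part of other cells in the results below was not tested.

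Under TPL, 61 genes (0.36% of 16948 tested) were called higher in TAM + TPL than in NT + TPL cells and 40 (0.236%) were called lower. Calls were made by the quasi-likelihood test of edgeR, fitted to all 4 groups, where the Benjamini-Hochberg adjusted p was 0.001 or less and the log2 difference was 1.2 or more in size. Among the genes furthest above were TMPRSS4, GZMB, STC1, TNC and SERPINE2, and among those furthest below were TNNI2, ETNK2, SYT8, KRT81 and C1R. With GAPDH as the reference in place of edgeR's scaling, which moved the median over all genes from -0.02 to -0.25 on the log2 scale, 44 genes were called higher and 58 lower, so that the share of higher calls was 43.1% instead of 60.4%. At an adjusted p up to 0.05 and the same size, 317 genes were higher and 410 lower (1.87 and 2.42%). The number of calls depended on single libraries: without TAM + TPL replicate 1 there were 6 higher and 0 lower, and without TAM + TPL replicate 2 there were 7 and 0. Fitted to the 4 TPL libraries only, edgeR called 0 genes in either direction at the first threshold, and 235 higher and 262 lower at the second.

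STC1, which codes for the secreted glycoprotein stanniocalcin 1, lay at 3.61 and 3.56 FPKM in NT + TPL and at 833 and 744 FPKM in TAM + TPL. The TAM + TPL libraries stood far above those of NT + TPL, a log2 difference of 7.75 ± 0.168 (SE, n = 2 and 2, edgeR adjusted p = 7.5e-06). SERPINE2, a secreted inhibitor of serine proteases, lay at 2.36 and 2.57 FPKM against 344 and 359 FPKM (log2 difference 7.13 ± 0.162, SE, edgeR adjusted p = 7.5e-06). TMPRSS4, a membrane serine protease, was at 0.23 and 0.19 FPKM in NT + TPL and at 80.0 and 81.2 FPKM in TAM + TPL. TNC, which codes for the matrix glycoprotein tenascin C, was at 0.69 and 1.05 FPKM against 134 and 138 FPKM. These genes were named for their size and because the TPL groups did not overlap, so their separation is no result of its own. STC1 and TMPRSS4, and GZMB, CHGB and DYSF described below, were also named for the largest rises in TAM against NT cells with DMSO.

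GZMB, the serine protease of cytotoxic granules, was at 1.41 and 0.57 FPKM in NT + TPL and at 373 and 280 FPKM in TAM + TPL. CHGB, a protein of secretory granules, was at 0.10 and 0.20 FPKM against 42.4 and 41.4 FPKM. DYSF, which takes part in membrane repair, was at 0.84 and 0.49 FPKM against 91.0 and 93.1 FPKM. IL13RA2, a receptor for IL13, and PPP2R2C, a regulatory subunit of a protein phosphatase, were also among the 12 largest, at log2 differences of 6.94 and 6.66. HBA1, an alpha globin, had no counts in NT + TPL, and its level in TAM + TPL was at least 280-fold higher, set against 3 counts per library. ADAMTS4, a secreted metalloprotease, has 2 rows. The row of its gene ID had no counts in NT + TPL and was at least 157-fold higher in TAM + TPL on the same basis, at 13.5 and 13.7 FPKM, while its other row was at 1.85 and 5.22 FPKM in NT + TPL and 3.33 and 1.17 FPKM in TAM + TPL, so the bound holds for that row and not for the gene. HBA1 shares most of its sequence with HBA2, so its value is uncertain.

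Among the genes lower in TAM + TPL, TNNI2, a troponin of fast muscle, was at 57.1 and 72.7 FPKM in NT + TPL and at 1.56 and 0.90 FPKM in TAM + TPL (log2 difference -5.80 ± 0.363, SE, edgeR adjusted p = 0.000287). ETNK2, an ethanolamine kinase, was at 41.8 and 22.6 FPKM against 0.78 and 0.51 FPKM. C1R, a protease of the complement system, was at 321 and 371 FPKM against 17.2 and 18.1 FPKM. These genes, too, were named by a rule that asks for groups apart under TPL, as 23.8% of all genes tested were in each direction. TNNI2, ETNK2 and C1R, and SYT8, CCDC80 and KRT81 described below, were also named for the largest falls in TAM against NT cells with DMSO.

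SYT8, a synaptotagmin, was at 277 and 355 FPKM in NT + TPL against 13.3 and 13.9 FPKM in TAM + TPL, and CCDC80, a secreted matrix protein, was at 130 and 91.5 FPKM against 5.23 and 5.63 FPKM. FXYD3, a regulator of the sodium pump, was at 344 and 337 FPKM against 27.5 and 25.9 FPKM. ANXA8 and ANXA8L1, near-identical annexins whose reads cannot be assigned with certainty, had log2 differences of -4.69 and -4.42. CYBRD1, an iron reductase, and RNASE4, a secreted ribonuclease, had log2 differences of -3.96 and -3.64, and the row NM_001306150, which was matched to no symbol, had -4.13.

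**Figure D1:**
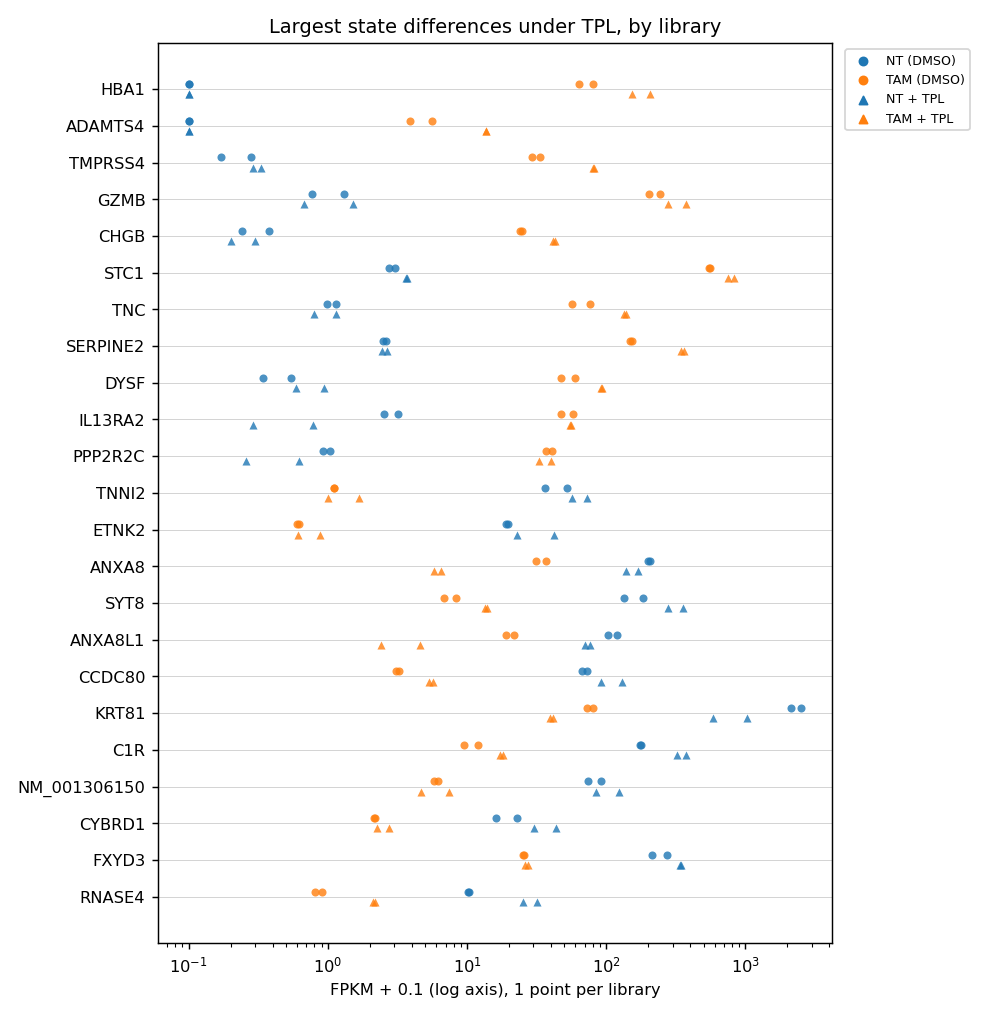
FPKM + 0.1 on a log axis of the genes most above and most below in TAM + TPL against NT + TPL, with 1 point per library; circles are DMSO and triangles TPL libraries, blue NT and orange TAM. The genes were chosen for triangles that lie apart. The circles entered that choice through the spread, which is estimated over all libraries. They have the states in the same order, which is no independent result.

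The calls under TPL were set beside those without it. With DMSO, TAM cells had 64 genes called higher and 47 called lower than NT cells (0.378 and 0.277% of genes tested). The values of the 2 comparisons come from different libraries, but the spread is estimated over all 8, so the lists of calls are not independent. Of these, 45 of 64 (70.3%) and 28 of 47 (59.6%) were called the same way under TPL. The sign was the same under TPL in 64 of 64 and in 47 of 47 genes. The 73 shared genes are 72.3% of the calls under TPL and 65.8% of those without it, and 0 genes were called in opposite directions. The number of shared genes depended on single libraries and on the fit: it was 0 without either NT library, 3 without either TAM library, 5 and 6 without TAM + TPL replicate 1 and 2, 43 without NT + TPL replicate 1, 60 without NT + TPL replicate 2, 23 with a replicate block and 0 in fits to the 4 libraries of each comparison. Over all genes tested, 62% had the same sign in both comparisons.

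The median log2 difference of the 64 genes was 3.76 without TPL and 3.34 under it, and that of the 47 genes -2.92 and -2.68, where the medians of all genes were -0.03 and -0.02. Under the wider threshold, that with an adjusted p up to 0.05, 428 genes were higher without TPL and 398 lower (2.53 and 2.35%). Of these, 187 (43.7%) and 196 (49.2%) passed it under TPL, which is 59 and 47.8% of the genes that passed it there. The 97 genes above 4 on the log2 scale without TPL had medians of 6.19 and 4.53, and the 183 genes between 1.2 and 2 had 1.59 and 0.98. Since the genes were chosen by their size without TPL, the smaller values under TPL carry no test.

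**Figure D2:**
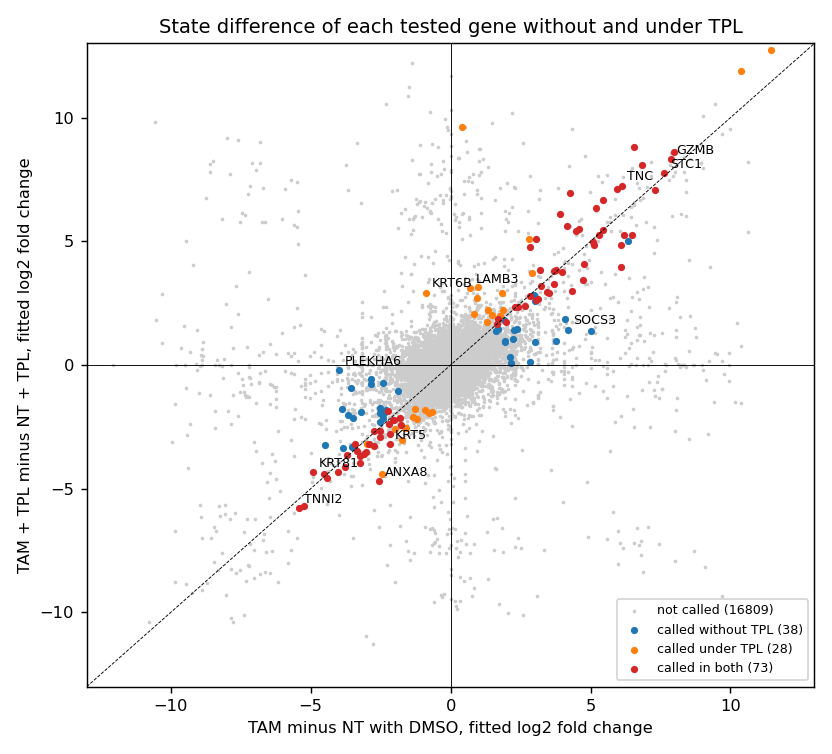
Fitted log2 fold change of TAM against NT cells with DMSO (horizontal axis) and under TPL (vertical axis), 1 point per tested gene, with the line of equal difference dashed. The 73 genes called in both comparisons lie on the same side of 0 on both axes, some of them off the line, such as ANXA8 at -2.55 and -4.69. KRT6B lies at -0.88 and 2.92, and PLEKHA6 at -3.99 and -0.21.

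The test of the change itself, the state difference under TPL minus that without TPL, called 0 genes at the first threshold with edgeR. At an unadjusted p under 0.05 it had 852 genes above and 947 below 0 (5.03 and 5.59%), DESeq2 called 144 genes, and at an adjusted p up to 0.05 edgeR had 15 and 13 genes (0.0885 and 0.0767%). A call in only one of the 2 comparisons is therefore no measure of a difference between them.

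KRT6B, an epithelial keratin induced in wounded and proliferating epithelium, was the gene with the smallest adjusted p of those named for the interaction. Without TPL it was at 151 and 170 FPKM in NT and at 85.1 and 87.3 FPKM in TAM cells, and under TPL at 7.36 and 6.30 FPKM in NT + TPL and 52.8 and 52.6 FPKM in TAM + TPL. The state with more KRT6B was NT without TPL and TAM under it, with log2 differences of -0.88 and 2.92 and a difference between them of 3.80 (edgeR adjusted p = 0.0029). Reads of KRT6B and KRT6C are hard to tell apart. KRT6C was higher in TAM cells in both settings, at 0.97 and 0.61 FPKM in NT + TPL against 31.7 and 25.3 FPKM in TAM + TPL (log2 difference 5.11).

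LAMB3, a chain of laminin 332 in the basement membrane, was at 42.6 and 27.0 FPKM in NT + TPL and at 306 and 299 FPKM in TAM + TPL, a log2 difference of 3.10. Without TPL both states were high, at 266 and 286 FPKM in NT and 488 and 396 FPKM in TAM cells. The log2 difference there was 0.69 (edgeR adjusted p = 0.108) and the interaction 2.41 (adjusted p = 0.0492). ITGA5, the fibronectin receptor's alpha chain, was at 31.1 and 25.0 FPKM against 122 and 120 FPKM under TPL, with a log2 difference of 2.08 against 0.83 without TPL, and its interaction of 1.25 did not pass (adjusted p = 0.0843).

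SOCS3, the feedback inhibitor of STAT3 signalling, went the other way. In DMSO it was at 12.8 and 14.4 FPKM in NT and 268 and 222 FPKM in TAM cells, and under TPL at 6.15 and 5.71 FPKM against 14.01 and 18.24 FPKM. Its log2 difference was 4.19 without TPL and 1.42 under TPL, and the interaction was -2.77 (edgeR adjusted p = 0.0348). NEDD4L, a ubiquitin ligase, was at 28.5 and 22.6 FPKM in NT + TPL against 27.2 and 29.1 FPKM in TAM + TPL, where the DMSO libraries were at 5.92 and 5.79 FPKM in NT and at 42.9 and 39.7 FPKM in TAM cells. PFKFB3, an enzyme that drives glycolysis, showed the same layout, at 40.2 and 35.4 against 38.3 and 42.5 FPKM under TPL. PLEKHA6, a protein of cell junctions, was at 39.1 and 28.1 against 33.9 and 24.8 FPKM under TPL, and at 35.9 and 39.0 against 2.73 and 1.94 FPKM with DMSO. In these 3 genes the states overlapped under TPL.

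**Figure D3:**
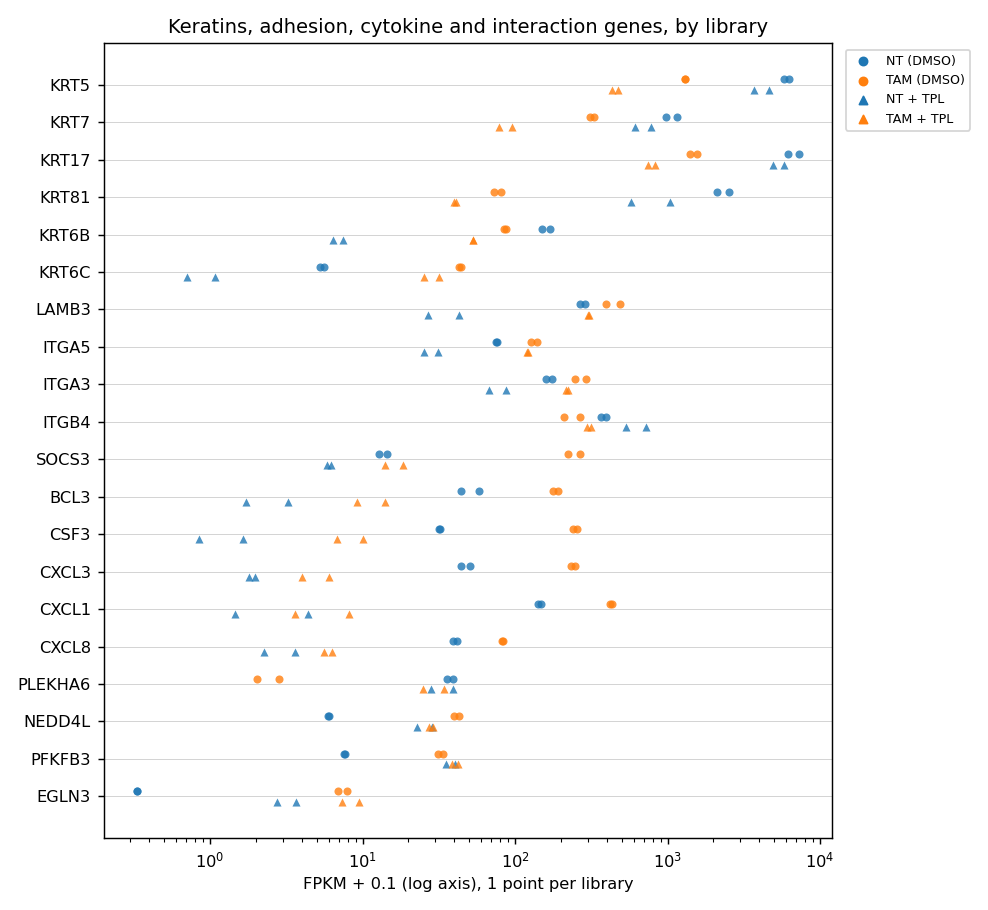
FPKM + 0.1 on a log axis of keratins, adhesion genes, cytokines and genes with an interaction, with 1 point per library; circles are DMSO and triangles TPL libraries, blue NT and orange TAM. KRT6B triangles of TAM + TPL lie above those of NT + TPL while the circles lie in the reverse order, and PLEKHA6 triangles of both states overlap.

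The keratins are intermediate filament proteins of epithelium. Of 16 tested, 6 were lower, 2 were higher and 8 did not pass at the wider threshold, with a median of -0.98. Without TPL 8 were lower and 1 higher, with a median of -1.61. Of all genes, 2.42% were lower and 1.87% higher at that threshold under TPL, and 2.35 and 2.53% without it. KRT5, the type II keratin of basal cells, was at 4630 and 3677 FPKM in NT + TPL against 475 and 434 FPKM in TAM + TPL (log2 difference -3.21 ± 0.143, SE, edgeR adjusted p = 8.48e-05). KRT17 was at 5805 and 4947 FPKM against 831 and 742 FPKM, and KRT7, of simple epithelium, at 774 and 608 FPKM against 78.1 and 95.0 FPKM. KRT81, a hair keratin with close relatives whose reads it may share, was at 1032 and 580 FPKM against 39.5 and 41.1 FPKM. KRT14, the partner of KRT5, was at 181 and 91.2 FPKM against 124 and 104 FPKM, so the states overlapped (log2 difference -0.27, adjusted p = 0.675).

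Of 14 integrin and hemidesmosome genes tested, 4 were higher and 1 lower at the wider threshold (all genes 1.87 and 2.42%). Their median was 0.44. ITGA3 and ITGA2, alpha chains of laminin and collagen receptors, had log2 differences of 1.48 and 1.98, and DST, a linker of hemidesmosomes, had -1.80. ITGB4, the hemidesmosome integrin, had -1.05 (adjusted p = 0.016). Of 21 extracellular matrix genes, 3 were higher and 4 lower (all genes 1.87 and 2.42%). TGFBI, a matrix protein induced by TGF-beta, was at 921 and 826 FPKM in NT + TPL against 161 and 172 FPKM in TAM + TPL.

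Of 17 matrix protease and plasminogen genes tested, 4 were higher and 2 lower (all genes 1.87 and 2.42%), and without TPL 1 and 2. Their median was 1.5 against -0.28 without TPL, where the medians of all genes were -0.02 and -0.03. The interaction was above 0 with an unadjusted p under 0.05 in 6 of the 17, against 5.03% of all genes, and in 0 after adjustment. MMP14, a membrane collagenase, was at 50.1 and 25.0 FPKM in NT + TPL against 195 and 179 FPKM in TAM + TPL (log2 difference 2.30, adjusted p = 0.00622), and PLAUR, the urokinase receptor, was at 35.2 and 18.6 against 96.4 and 89.6 FPKM. Of 19 Src family and focal adhesion genes, 5 were lower and 0 higher in both comparisons. Of all genes, 2.42 and 1.87% were so under TPL, and 2.35 and 2.53% without it. CAV1, the main coat protein of caveolae, was at 110 and 99.6 FPKM against 10.04 and 7.40 FPKM. SRC itself was at 13.7 and 8.57 FPKM against 4.37 and 4.72 FPKM (log2 difference -1.31, adjusted p = 0.0329), and PTK2B, a kinase related to FAK, had -1.35. ESR1, whose reads include any from the receptor part of the transgene, had -1.45 (adjusted p = 0.0199).

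In the keratinocyte differentiation and S100 list, 5 of 17 were higher and 2 lower (all genes 1.87 and 2.42%). SERPINB3 and SERPINB4, neighbouring protease inhibitors that are close copies, were at 23.5 and 21.1 against 675 and 653 FPKM and at 10.6 and 12.8 against 454 and 456 FPKM. S100A8 and S100A9, which form calprotectin, had, for the S100A8 row with most reads out of 5, log2 differences of 4.81 and 4.94 with adjusted p = 0.0012 each, past the wider threshold only.

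The loop of IL6 and STAT3 was examined by its components. Of 19 genes of the pathway tested, 2 were higher and 0 lower at the wider threshold, against 3 and 1 without TPL. Of all genes, 1.87 and 2.42% were so under TPL, and 2.53 and 2.35% without it. IL6 has 2 rows. The one with more reads was at most 0.10 FPKM in each of the 4 TPL libraries. With DMSO it was at 0 and 0.10 FPKM in NT and at 2.93 and 2.23 FPKM in TAM cells. The other row was at 0.54 FPKM in TAM + TPL replicate 1 and at 0 in the other TPL and DMSO libraries. STAT3 was at 65.7 and 54.0 FPKM against 68.5 and 74.5 FPKM (log2 difference 0.23, adjusted p = 0.383). BCL3, a nuclear partner of NF-kB, was at 3.14 and 1.63 FPKM against 13.8 and 9.07 FPKM (log2 difference 2.24, adjusted p = 0.011). Of 16 NF-kB subunits and inhibitors, 0 passed in either direction at the wider threshold. With edgeR, 1 had an unadjusted p under 0.05 on the higher side and 4 on the lower. Of all 16948 genes tested, 1546 and 2062 did.

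Of 23 secreted chemokines and cytokines tested, 3 were higher and 3 lower (all genes 1.87 and 2.42%). IL24 was at 4.54 and 4.61 FPKM in NT + TPL against 35.4 and 38.7 FPKM in TAM + TPL. CSF3 and CXCL3, which act on neutrophils, were at low levels in the TPL libraries and still apart, at 1.55 and 0.75 against 9.93 and 6.72 FPKM and at 1.86 and 1.71 against 5.92 and 3.88 FPKM. IL18 was lower, at 93.9 and 87.7 against 18.1 and 20.9 FPKM. SAA1, an acute phase protein whose reads it shares with SAA2, was at 3491 and 8371 against 113 and 131 FPKM, and the NT + TPL replicates differed from each other more than the TAM + TPL replicates did. BATF3, an AP-1 family factor, was at 0.40 and 0.81 against 18.4 and 25.1 FPKM, and was the 1 gene of 21 in its list that passed.

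Genes of the cell cycle had medians above 0 in both comparisons. Of 24 genes of G2/M and mitosis, 4 were higher at the wider threshold under TPL and 19 without TPL, with medians of 0.97 and 2.15. Among all genes, 1.87 and 2.53% were higher at that threshold, which also applies to the lists below. The interaction was below 0 with an unadjusted p under 0.05 in 14 of the 24 genes, against 5.59% of all genes, and in 0 after adjustment. TPX2, a spindle assembly factor, was at 2.24 and 1.88 FPKM in NT + TPL against 7.29 and 7.38 FPKM in TAM + TPL, and CDK1, the mitotic kinase, was at 2.44 and 2.90 against 8.59 and 12.3 FPKM. Of 24 genes of G1/S and replication, 2 were higher under TPL and 11 without, with medians of 0.47 and 1.42. Interferon-stimulated genes were higher in 2 of 23 under TPL and 8 of 23 without (all genes 1.87 and 2.53%), and their interaction passed in 0 after adjustment and lay below 0 with an unadjusted p under 0.05 in 7.

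Of 20 hypoxia and glycolysis genes, 4 were higher under TPL and 7 without, against 1.87 and 2.53% of all genes. VEGFA, the growth factor of blood vessels, was at 13.5 and 11.8 FPKM against 44.1 and 42.2 FPKM under TPL, with log2 differences of 1.75 under TPL and 1.99 without. EGLN3, an oxygen sensor, was at 2.66 and 3.57 against 7.27 and 9.44 FPKM under TPL and at 0.23 and 0.23 against 6.77 and 7.84 FPKM with DMSO, with an interaction of -3.61 (adjusted p = 0.0425).

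Of the 10 subunits of TFIIH, the complex that TPL binds, 0 passed with edgeR at the wider threshold. In each direction 1 had an unadjusted p under 0.05 with edgeR, as did 1546 higher and 2062 lower of all 16948 genes. ERCC3, which codes for XPB, was at 10.7 and 9.68 FPKM in NT + TPL against 10.5 and 10.6 FPKM in TAM + TPL, a log2 difference of 0.03 ± 0.148 (SE, adjusted p = 0.957) that was -0.20 with GAPDH as the reference. VIM, an intermediate filament protein of mesenchyme, and CDH1, the adhesion molecule of epithelium (the row with most reads out of 3), had log2 differences of -0.21 and -0.82 that did not pass (adjusted p = 0.385 and 0.209).

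The remaining lists gave 0 or 1 gene in a direction at the wider threshold under TPL. The exceptions were the basal epithelial markers and the oestrogen receptor list. In the latter 2 of 8 were lower, CA12 and ESR1, which codes for the receptor itself and is no target. Of all genes, 1.87% were higher and 2.42% lower there. Of 18 ERK feedback regulators 1 was higher, ETV4, at 0.83 and 0.97 FPKM against 4.32 and 4.97 FPKM. Of 13 EGF ligands and receptors 1 was lower, the receptor ERBB2, with a log2 difference of -1.26. Of 19 epithelial junction genes 1 was lower, CLDN1, a claudin of tight junctions, at 40.3 and 15.7 FPKM against 6.33 and 4.57 FPKM, where 5 were lower without TPL. Of 17 mesenchymal genes 1 was lower, the receptor kinase AXL, and of 20 cholesterol synthesis genes 1 was lower, LSS, the enzyme that forms lanosterol. Of 10 basal epithelial markers 3 were lower, KRT5, KRT17 and CAV1, and 1 higher, LAMB3. These genes are also members of other lists above, so they are counted again here. Of 9 fibroblast, immune and endothelial markers tested 1 was higher, CD68, and 1 lower, CD14.

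**Figure D4:**
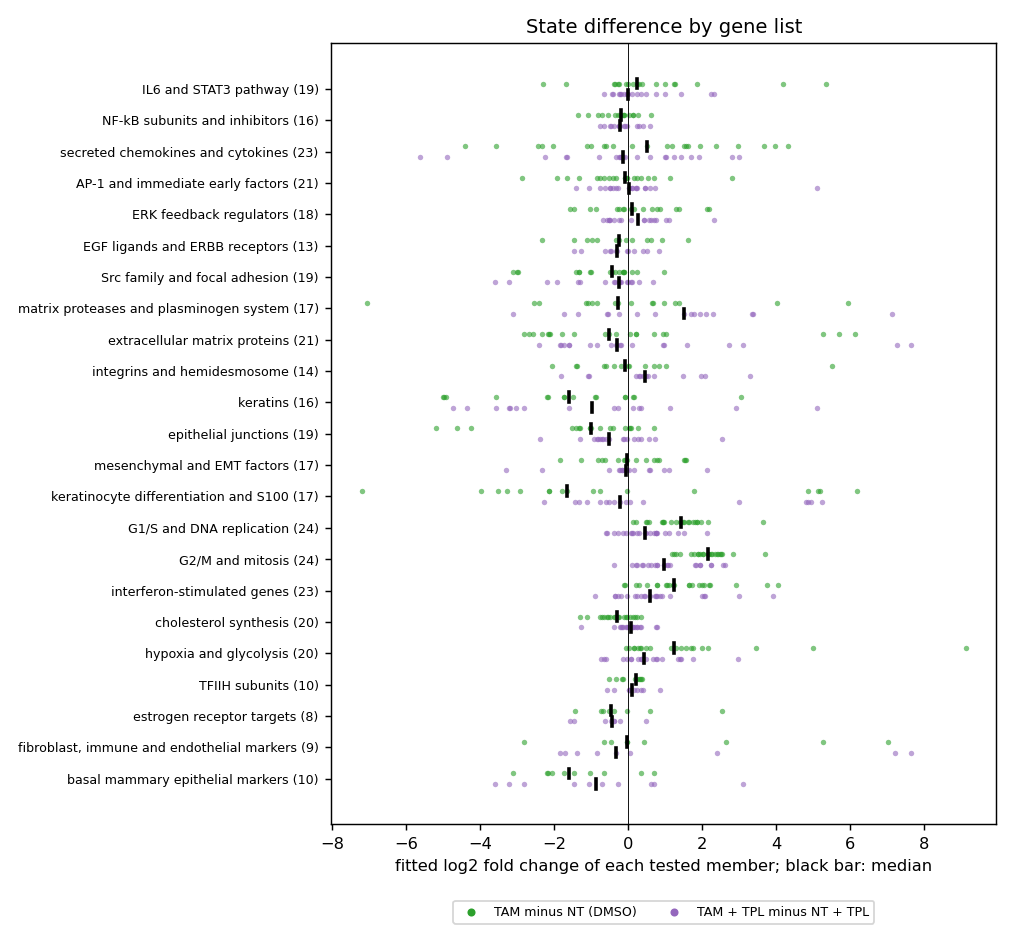
Fitted log2 fold change of each tested member of the gene lists, in green for TAM against NT with DMSO and in purple for TAM + TPL against NT + TPL, with the number tested in brackets and a black bar at the median. The G2/M median lies at 2.15 in green and 0.97 in purple, and the TFIIH medians lie near 0 in both.

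RNAPII peaks at promoters were set beside the RNA differences. The deposited lists hold 1 set of peaks per condition without a score or replicates, and a gene was counted as occupied when the TSS of its canonical transcript lay in a listed peak. Of 13944 tested genes with 1 row and 1 such TSS, 549 (3.94%) had a peak in the TAM + TPL list only and 675 (4.84%) in the NT + TPL list only. Of 58 genes called higher in TAM + TPL, 17 (29.3%) had a peak in the TAM + TPL list only and 0 in the NT + TPL list only. Of 36 called lower, 5 (13.9%) had one in the NT + TPL list only and 1 in the TAM + TPL list only. In neither TPL list were 35 of the 58 (60.3%) and 27 of the 36 (75%), against 46% of all genes. No test was made, since there is 1 list per condition.

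Of the genes described above as furthest above in TAM + TPL, TMPRSS4, GZMB, CHGB, DYSF, IL13RA2 and PPP2R2C had no peak in any of the 4 lists. TNC, SERPINE2 and STC1 had no peak in either NT list and a peak in both TAM lists, and KRT5 had a peak in the NT, NT + TPL and TAM lists and none in the TAM + TPL list. The peak of TNC in TAM + TPL ran over chr9:117880308-117880556 on build hg19, across the TSS at 117880436 on the minus strand. The 200 bases before the TSS of TNC and KRT5 are shown, since they are the promoter stretches at these peaks. They come from GRCh37, 5′ to 3′ on the gene's strand, at chr9:117880437-117880636 (TNC) and chr12:52914179-52914378 (KRT5), both on the minus strand, and capitals would mark matches to the motifs named after them.

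TNC: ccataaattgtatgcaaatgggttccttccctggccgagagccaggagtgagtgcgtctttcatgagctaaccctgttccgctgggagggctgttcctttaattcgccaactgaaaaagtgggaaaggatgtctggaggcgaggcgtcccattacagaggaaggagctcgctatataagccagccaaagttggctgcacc

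KRT5: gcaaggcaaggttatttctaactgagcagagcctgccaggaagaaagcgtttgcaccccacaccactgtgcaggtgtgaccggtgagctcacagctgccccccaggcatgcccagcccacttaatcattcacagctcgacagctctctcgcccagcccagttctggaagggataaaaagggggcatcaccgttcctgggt

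The letters of AP-1 (TGANTCA), of STAT (TTCNNNGAA) and of the TATA box, TATAAA, were searched on both strands, and 3.41, 3.99 and 5.29% of the 13944 stretches of the same length held them. TNC and KRT5 held no match, which says only that these exact letters are not in these windows. Other forms of the TATA box were not searched, so these promoters are not shown to lack one.

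**Figure D5:**
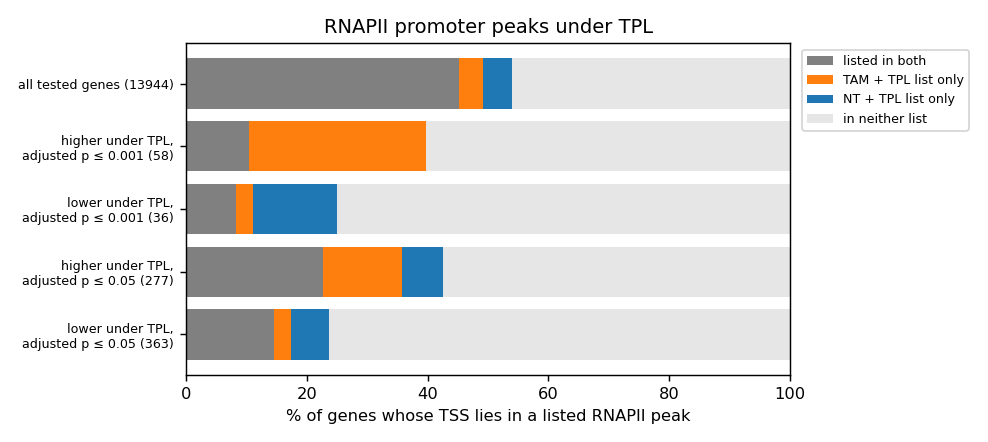
Share in % of genes whose TSS lay in a listed RNAPII peak under TPL, for all tested genes and for genes called higher or lower at both thresholds, with numbers of genes in brackets; colours give the list or lists holding the peak. The orange share of genes called higher at the first threshold is 29.3% against 3.94% of all genes, and the blue share of genes called lower is 13.9% against 4.84%.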

How the data were processed

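RNA-Seq was made from 8 cultures, 2 each of NT, TAM, NT + TPL and TAM + TPL. The authors enriched poly-A RNA, aligned reads to reference transcripts with Bowtie2 and estimated expression with RSEM. The expected counts were deposited without normalization. The FPKM were deposited by the authors scaled to transcript length and mapped reads. The RNAPII peak positions were deposited by the authors as 1 list per condition on hg19, and the name of the TAM list's peaks carries another cutoff than the other lists.

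Rows without a read are absent from a library's file and were taken as 0. Of 23604 rows, 21077 found a symbol through the gene ID, 2384 by accession, 23 by the transcripts of the row and 120 by none. Gene names came from a RefSeq table, TSSs from GENCODE on GRCh37. Rounded counts were tested with edgeR 4.0.16 (R 4.3.3; TMM scaling, filterByExpr, quasi-likelihood test, p adjusted by Benjamini-Hochberg) over 16948 rows, in a single fit of 4 groups. The biological coefficient of variation was 0.315. Tested on simulated data, the comparison under TPL recovered 66 of 200 changed genes at an adjusted p of 0.001 and 132 at 0.05, and 0 unchanged genes were called. The counts were drawn from edgeR's own model with the spread fitted to these libraries. Only genes with enough reads were changed, and only in TAM + TPL. These results therefore hold under that model only. Of genes changed by 2 on the log2 scale, 9 of 50 and 30 of 50 were recovered. The depth was 7461309 to 8349448 counts per library. Errors marked SE are approximate: the size of the log2 difference divided by the square root of edgeR's F statistic.

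Named genes were up to 12 calls per direction under TPL and 8 without TPL with the largest fitted change, a mean of at least 1 FPKM and groups that do not overlap. Further ones were up to 6 members per gene list with an adjusted p of at most 0.05 and at least 1 in size on the log2 scale, 20 genes of the loop, of TFIIH and of the study, and 5 genes by the interaction, 109 in all, of which some are not reported here. Peak genes and markers beyond these were chosen after their values were seen. The 24 gene lists cover the IL6, NF-kB, cytokine, AP-1, ERK, EGF, Src, protease, matrix, integrin, keratin, junction, EMT, differentiation, cell cycle, interferon, cholesterol, hypoxia, TFIIH and oestrogen receptor genes, cell type markers and mitochondrial mRNAs, of which no row was listed. The samples, lists and rules were chosen with earlier results of these data known. Folds against groups at 3 counts or fewer in each library are lower bounds.

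Same-numbered replicates were not paired: the correlation of their deviations was 0.044 between NT + TPL and TAM + TPL. Alternatives were DESeq2 1.42.0, other scalings and filters, limma 3.58.1 on log2(FPKM + 1) and log2(FPKM + 0.1), a replicate block, a fit of 4 libraries, summed rows of a symbol and leaving out each library. Summaries used Python 3.11.15, numpy 2.4.6, pandas 2.3.3 and matplotlib 3.10.9.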

Additional observations from a re-analysis of the deposited data

Results flagged for a closer look

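For 8 of the genes reported, the state difference under TPL differed from that without TPL by the interaction test of edgeR at an adjusted p of at most 0.05. KRT6B, PLEKHA6, NEDD4L and PFKFB3 were named by their interaction p, so their passing is no result of its own. Of all genes tested, 15 passed above and 13 below 0 (0.0885 and 0.0767%) with a size of at least 1.2. At an adjusted p of at most 0.001, 0 passed. The log2 difference under TPL minus that without it was 3.80 for KRT6B, 3.77 for PLEKHA6 and 2.41 for LAMB3. It was -2.08 for PFKFB3, -2.15 for ANXA8, -2.71 for NEDD4L, -2.77 for SOCS3 and -3.61 for EGLN3. Reads of ANXA8 may come from ANXA8L1, and EGLN3 has 2 rows.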

How the results depend on the processing

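The counts of calls rest on the spread that 8 libraries share, and 2 libraries per group limit them. All counts are given as higher and lower, first under TPL and then without TPL (main values 61 and 40, 64 and 47). DESeq2 called 303 and 368, then 390 and 355, and 144 genes for the interaction against 0. At least 10 counts in every library gave 111 and 161, then 153 and 170, and 3 for the interaction. Summed rows of a symbol gave 175 and 234, then 231 and 233, and 3 for the interaction. An adjusted p of at most 0.05 gave 317 and 410, then 428 and 398, and 28 for the interaction. No filter on low counts gave 79 lower under TPL and 80 lower without it. GAPDH as the reference gave 36 and 73 without TPL, and limma on log2(FPKM + 1) with no filter gave 26 lower without TPL. Fits to the 4 libraries of each comparison gave 0 and 0, then 38 and 22, and 262 lower under TPL at an adjusted p of at most 0.05.

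The replicate block gave 21 and 9, then 28 and 9. The same-numbered libraries did not deviate together (r from -0.135 to 0.050).

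With each library left out in turn, a group's lone library is assumed to vary like the others. The calls under TPL then lay between 6 and 36 higher and between 0 and 37 lower, those without TPL between 0 and 66 and between 0 and 63, and the interaction at 0. At an adjusted p of at most 0.05 they lay between 160 and 447 higher and between 165 and 419 lower under TPL. Leaving out NT replicate 1 or 2 gave 28 and 9 under TPL, TAM replicate 1 or 2 gave 12 and 2, NT + TPL replicate 1 gave 27 and 21, and NT + TPL replicate 2 gave 36 and 37. The genes called in the same direction in both comparisons, 73 in the fit of all libraries, lay between 0 and 60 there; they numbered 359 with DESeq2, 162 with at least 10 counts, 383 at an adjusted p of at most 0.05, 252 with summed rows and 23 with the replicate block. Of the 111 genes called without TPL, the sign under TPL was the same in 110 or 111.

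Some log2 differences close to 0 turned direction. PLEKHA6 lay between -0.44 and 0.04 with each library left out, at 0.04 without NT + TPL replicate 1 and 0.03 without TAM + TPL replicate 2. The IL6 row with more reads was at most 0.10 FPKM in each TPL library, so its difference is poorly determined. It lay between 0.00 without TAM + TPL replicate 2 and 3.13 without TAM + TPL replicate 1. With GAPDH as the reference, ERCC3 was -0.20, GTF2H4 -0.16, NEDD4L -0.10 and PFKFB3 -0.15. Without NT + TPL replicate 2, GTF2H4 was -0.02 and POLR2A -0.10, against 0.82 without NT + TPL replicate 1. SOX9 was 0.01 with DESeq2 and with its size factors, 0.04 with the upper quartile, 0.03 with limma on log2(FPKM + 1), with or without the filter, 0.04 with limma on log2(FPKM + 0.1), 0.47 without NT + TPL replicate 1 and 0.20 without TAM + TPL replicate 2, and -0.35 without NT + TPL replicate 2. The cause was not tested.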
